A study of Mus with 5 samples.

Results

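The 8 microRNA genes Mir155, Mir146, Mir21a, Mir17, Mir150, Mir142, Mir23a and Mir29b-1 carried 30 BATF peaks in control CD8 T cells and 17 after retinoic acid (RA), while RARα peaks were assigned to Mir155 and Mir21a in control cells and to none of the 8 after RA. With the BATF control list shortened to as many peaks as the RA list, the strongest first, 19 of the 30 peaks were left. The genes were picked for what is known of their microRNAs in activated T cells, and a peak was counted for a gene when the symbols that the authors' annotation gave that peak included it. They are 8 of the 1228 microRNA genes and of the 26219 genes of all kinds in the gene table used. Their peaks made up 3 of 1172 RARα control peaks, 0 of 597 RARα peaks with RA, 30 of 15812 BATF control peaks and 17 of 9899 BATF peaks with RA. All cells were naive CD8 T cells from the spleens of wild-type mice. They had been activated for 24 h with antibodies to CD3 and CD28 together with IL-2, and rested for 24 h in IL-2, by the culture protocol; the treatment tags of the samples name other interleukins, from IL-7 to IL-10. The control cells then had 1 h without RA and the treated cells 1 h with 50 nM RA. Chromatin was precipitated with anti-RARα, anti-BATF or normal rabbit IgG. Each of the 4 peak lists pooled 2 ChIP alignment files against 1 IgG file, and the sources used here do not state whether the pooled files are separate cultures. With 1 list per condition there is no replicate spread, so the differences below are descriptions without a test, and their intervals cover counting error only.

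A microRNA gene is transcribed as a long primary transcript, from which Drosha cuts a hairpin and Dicer a short duplex. A strand of the duplex is loaded on an Argonaute protein and guides it to mRNAs that pair with its seed, which lowers their translation and stability. The start of the primary transcript can lie far from the hairpin, so that a peak at a distance from the hairpin may still be near the start. BATF is an AP-1 family transcription factor needed for effector CD8 T cells, and RARα is a nuclear receptor that binds DNA with or without its ligand RA.

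The RARα pools held 22655611 fragments (control) and 22475060 (RA), the BATF pools 23110180 (control) and 16424269 (RA), and the IgG file 11410673, so that BATF after RA had the shallowest ChIP pool. RARα peaks were called at a p-value of 0.001 and BATF peaks at 1e-05, so the number of peaks cannot be compared between the factors. As a check of the cell label, all 5 T cell loci examined had a BATF peak in both conditions, with 37 and 17 distinct peaks. Of 6 B cell and myeloid loci 4 had one in control cells and 2 with RA, with 6 and 3 peaks, where the shares of all genes were 44.9% and 35.2%. The B cell and myeloid loci were thus not free of BATF peaks, and peaks at these loci do not check the cell label.

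In the BATF control list all 8 genes had a peak, against 44.9% of all genes and 28.8% of microRNA genes. With RA 7 of the 8 had a BATF peak, against 35.2% of all genes and 21.8% of microRNA genes. BATF peaks of the promoter class lay at 6 of the 8 genes in control cells, where the shares were 34.1% of all genes and 13.0% of microRNA genes. With RA they lay at 5 of the 8, against 24.9% and 9.04%. In the RARα control list 2 of the 8 genes had a peak, against 6.63% of all genes and 4.4% of microRNA genes, and in the RARα list with RA none had, against 2.9% and 1.22%. The 8 genes were chosen with these lists already examined once, and 27 of the 30 BATF control peaks also name another gene, so these shares describe the genes and do not set them apart from others.

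**Figure D1:**
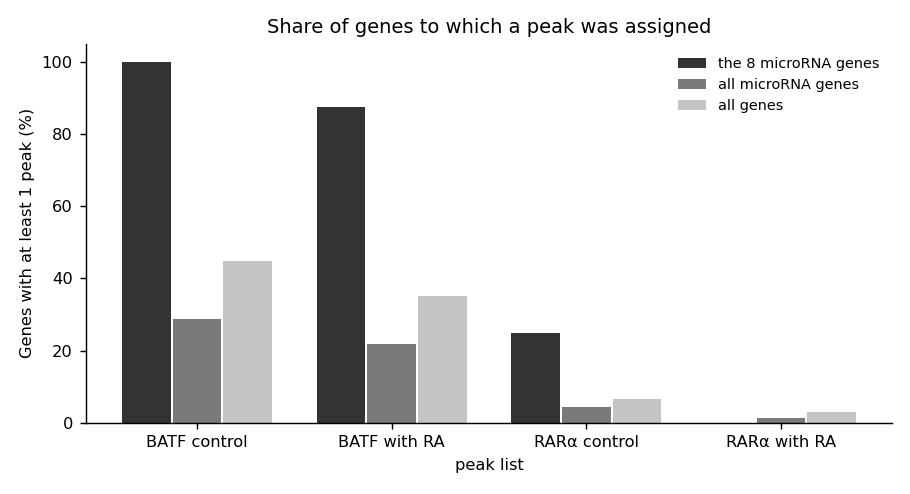
Percentage of genes (vertical axis) to which at least 1 peak was assigned in each of the 4 peak lists (horizontal axis), for the 8 microRNA genes, all microRNA genes and all genes. All 8 had a BATF peak in control cells and 7 with RA, while 2 had a RARα peak in control cells and none with RA.

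Of the 30 BATF control peaks, 10 were of the promoter class and 20 intergenic, and none was classed as intron or exon. Among the assigned peaks of both BATF lists the class followed distance from the hairpin, with promoter peaks at most 2284 bp and intergenic peaks at least 2832 bp away. Other peaks near the Mir21a hairpin did not follow this. BATF control peaks 7132 bp and 8774 bp from it were classed as intron and assigned to Vmp1 only. The absence of intron peaks above thus depends on the assignment. Of the 30 peaks 19 lay within 10 kb of the hairpin, and 25 on its lower-coordinate side. The count by side depends on the assignment too. Several peaks on the higher-coordinate side of Mir21a and Mir29b-1 were assigned to Vmp1 or Lincpint and not to the microRNA gene. Fold enrichment over IgG ran from 2.66 to 15.3 with a median of 5.25, close to the median of 5.40 over the whole list. With RA the 17 peaks ran from 3.26 to 11.2 with a median of 5.29, the same as the 5.29 of their whole list. As a group the 8 genes thus carried BATF peaks of ordinary height, with the highest fold at Mir155 and the most fragments at Mir142.

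**Figure D2:**
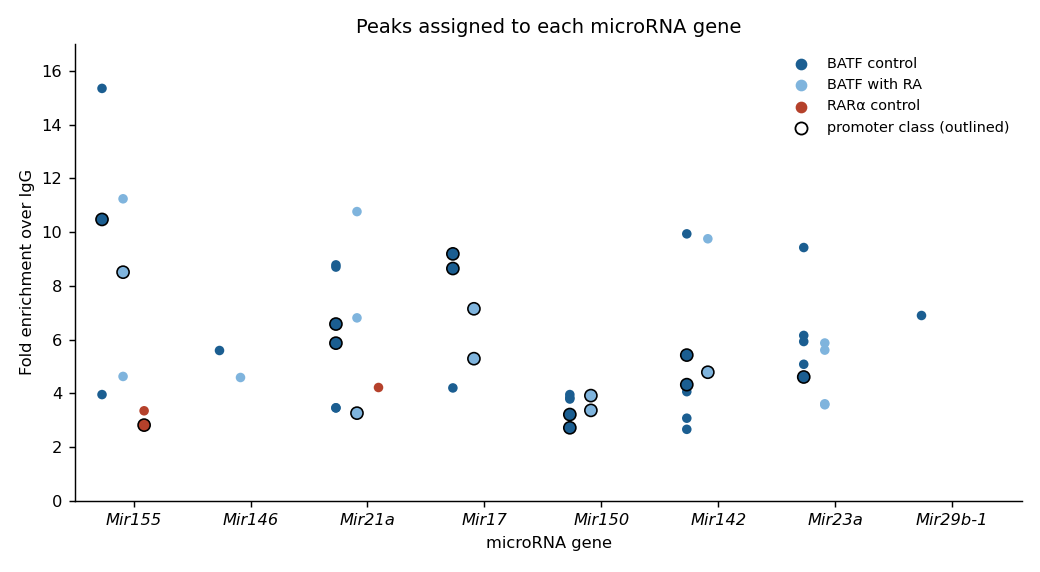
Fold enrichment over IgG (vertical axis) of every peak assigned to each of the 8 microRNA genes (horizontal axis), coloured by peak list, with promoter class peaks outlined. The highest point is the BATF control peak of 15.3 at Mir155, the RARα points lie at Mir155 and Mir21a between 2.82 and 4.24, and no RARα peak with RA was assigned to any of them.

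Mir155 encodes miR-155, which is induced by T cell activation, represses the signalling inhibitors Socs1 and Inpp5d and is needed for strong CD8 T cell responses. Its hairpin (chr16:84714140-84714204, mm10) lies within the non-coding host transcript Mir155hg, which spans chr16:84713023-84715245. BATF control peaks lay 281 bp from the hairpin (chr16:84713046-84713859, promoter class), 10393 bp from it (chr16:84702597-84703747, at a CpG island) and 92303 bp from it (chr16:84621437-84621837). The 281 bp peak had a fold of 10.5 with 52 fragments at its summit in control cells and 8.51 with 32 fragments after RA. The peak 10393 bp away had a fold of 15.3 with 59 fragments in control cells and 11.2 with 33 after RA. The far peak had a fold of 3.95 with 19 fragments and 4.63 with 13. All 3 Mir155 peaks were thus found again with RA, and the middle one was at the 96.5th percentile of fold among BATF control peaks.

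Scaled to depth (summit fragments divided by all fragments of the pool), the RA summits at Mir155 were 0.866 (95% interval 0.539 to 1.37), 0.787 (0.498 to 1.23) and 0.963 (0.437 to 2.05) of the control summits, in the same order. Each of these intervals spans 1, so a change of BATF at Mir155 was not detectable at this depth.

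RARα peaks were called at Mir155 in control cells at the same places as the 2 strongest BATF peaks, but with −log10 p-values of 4.97 and 4.15, so that neither call holds at a −log10 p-value of 5, the cutoff used for BATF. The RARα peak chr16:84703053-84703451 (fold 3.35, 12 fragments) lay entirely inside the BATF control peak, with its summit 129 bp from the BATF summit. The RARα promoter peak chr16:84713006-84713368 (fold 2.82, 13 fragments) shared 323 bp with the BATF peak, and their summits were 17 bp apart. RARα had 12 fragments there against 59 of BATF, and 13 against 52. The median summit height as deposited was 13.0 over the RARα control list and 30.6 over the BATF control list. Counts from the different antibodies thus do not compare the occupancy of the factors.

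Mir21a encodes miR-21, which is abundant in activated T cells and represses Pdcd4. Its hairpin (chr11:86584067-86584158) lies within Vmp1, a gene for an autophagy membrane protein. It had 6 BATF control peaks and 3 with RA. The tallest in fragments, 6175 bp from the hairpin (chr11:86577318-86577892), had a fold of 8.78 with 79 fragments in control cells and 6.81 with 45 after RA. The peak 10013 bp away (chr11:86573641-86574054) had a fold of 8.70 with 33 fragments and 10.8 with 33 after RA, the largest rise among the overlapping peaks of the 8 genes, at a ratio of 1.41 in depth-scaled fragments (0.842 to 2.35). The interval spans 1.

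Over the Mir21a hairpin itself a broad BATF control peak (chr11:86583804-86585423) had a fold of 6.58 with 36 fragments. After RA the peak there (chr11:86584649-86584916) was narrower, no longer reached the hairpin and had a fold of 3.26 with 14 fragments, a ratio of 0.547 (0.273 to 1.04). A promoter class peak 1949 bp away (chr11:86586107-86587466), which lies in intron 10 of Vmp1, had a fold of 5.87 with 32 fragments. Its overlapping RA peak, with a fold of 4.14 and 21 fragments, was assigned to Vmp1 only and so is not among the 17 peaks counted with RA. The label of a gene can thus change where the peak itself is still there.

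The remaining BATF control peaks at Mir21a, 4914 bp away (chr11:86578746-86579153) and 2832 bp away (chr11:86580708-86581235), each had a fold of 3.46 with 20 fragments and no overlapping peak with RA. The nearer of them overlapped the strongest RARα peak of the 8 genes, chr11:86580586-86581132, with a fold of 4.24 and 22 fragments. The peaks shared 425 bp and their summits were 122 bp apart. Here RARα had 22 fragments and BATF 20, at the 82.6th and 13.5th percentiles of summit height in their own lists. As at Mir155, counts from the different antibodies do not compare occupancy.

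Mir17 is the first gene of the miR-17-92 cluster, whose microRNAs promote lymphocyte proliferation and survival and repress Bcl2l11. Its hairpin is at chr14:115043671-115043754. Of its 3 BATF control peaks, the promoter class peak 527 bp away (chr14:115041909-115043144) had a fold of 9.19 with 44 fragments, and 7.15 with 24 after RA. The promoter class peak 2023 bp away (chr14:115040288-115041648, at a CpG island) had a fold of 8.64 with 34 fragments, and 5.29 with 15 after RA. The corresponding depth-scaled ratios were 0.767 (0.446 to 1.29) and 0.621 (0.314 to 1.17). The third, 3639 bp away (chr14:115039780-115040032), had a fold of 4.20 with 16 fragments and no overlapping peak with RA, although the neighbouring RA peak was 562 bp from it. No RARα peak was assigned to Mir17 in either condition.

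Mir23a is the first gene of the miR-23a, miR-27a and miR-24-2 cluster, whose hairpins are processed from 1 transcript. Its hairpin is at chr8:84208518-84208592, and its 5 BATF control peaks were spread over the 20982 bp on its lower-coordinate side. The peak 9666 bp away (chr8:84197301-84198852) had the most fragments, 80, with a fold of 6.15, and 49 fragments with a fold of 5.61 after RA. The most distant one (chr8:84186621-84187536) had a fold of 9.42 with 36 fragments in control cells and 3.61 with 13 after RA. Its ratio of 0.508 (0.247 to 0.981) was the only one among the overlapping peaks of the 8 genes with an interval below 1.

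The Mir23a peak 15523 bp away (chr8:84192525-84192995) had a fold of 5.93 with 35 fragments in control cells and 5.87 with 26 after RA, a ratio of 1.05 (0.604 to 1.79). The one 5635 bp away (chr8:84200737-84202883) had a fold of 5.08 with 35 fragments, and 3.57 with 18 after RA, a ratio of 0.724 (0.386 to 1.31). The promoter class peak 192 bp from the hairpin (chr8:84207873-84208326) had a fold of 4.61 with 17 fragments and its nearest peak with RA was 6033 bp away. Mir23a thus had no promoter class peak with RA, but 4 of its 5 BATF regions were found again.

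Mir142 encodes miR-142, a microRNA of blood cells in general. Its hairpin is at chr11:87756864-87756927, within the overlapping gene Mir142b. Among its 6 BATF control peaks was the one with the most fragments of all 30, 6584 bp away (chr11:87748886-87750280), with 170 fragments and a fold of 9.93, at the 99.5th percentile of fragments among BATF control peaks. After RA it had 107 fragments and a fold of 9.75, a ratio of 0.886 (0.689 to 1.13). The IgG level under it was 16.0 fragments, against a median of 4.56 under all BATF control peaks, and it was also high under a weaker peak 11299 bp away (chr11:87744942-87745565), at 12.0. The part of this local background in the Mir142 fold values was not tested.

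That weaker Mir142 peak had a fold of 2.66 with 34 fragments, and the peaks 5691 bp (chr11:87750772-87751173) and 4660 bp (chr11:87751511-87752204) away had folds of 3.07 and 4.06 with 27 and 36 fragments. The promoter class peak 1537 bp away (chr11:87754678-87755327) had a fold of 4.32 with 34 fragments. None of these 4 had an overlapping peak with RA. The promoter class peak 71 bp from the hairpin (chr11:87756208-87756793) had a fold of 5.42 with 32 fragments, and its RA peak, which reached over the hairpin (chr11:87756645-87756978), had 4.78 with 21. Mir142 therefore went from 6 BATF peaks to 2, its tallest and the one nearest the hairpin. It had no RARα peak.

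Mir150 encodes miR-150, a microRNA of mature lymphocytes that falls when T cells are activated and represses Myb. Its hairpin is at chr7:45121757-45121821. The BATF control peak over the hairpin (chr7:45121399-45122111) had a fold of 2.72 with 32 fragments over an IgG level of 11.0. The one 1363 bp away (chr7:45123184-45124843) had a fold of 3.21 with 51 fragments over an IgG level of 15.0. Both folds were in the lowest 5% of the list in spite of these fragment counts.

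With RA the hairpin peak of Mir150 had no overlapping peak, while 2 RA peaks fell within the region of the other, chr7:45123349-45123591 with a fold of 3.91 and 17 fragments and chr7:45124105-45124807 with 3.36 and 29. The ratio to the second was 0.800 (0.489 to 1.29). The 3 intergenic Mir150 peaks, 39224 bp (chr7:45082135-45082533), 13719 bp (chr7:45107758-45108038) and 11342 bp away (chr7:45110148-45110415), had folds of 3.79, 3.84 and 3.95 with 22, 14 and 15 fragments and had no RA peak within 5 kb. All 5 control folds at Mir150 were thus under 4, and no RARα peak was assigned to the gene.

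Mir146 encodes miR-146a, a microRNA induced by NF-κB that represses the signalling proteins Traf6 and Irak1. Its hairpin is at chr11:43374397-43374461. It had a single BATF peak, 15377 bp away (chr11:43358543-43359020), with a fold of 5.60 and 33 fragments, and 4.62 with 19 after RA. The ratio was 0.810 (0.435 to 1.47), which does not separate the conditions.

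Mir29b-1 encodes miR-29b, which represses the T cell factors Tbx21 and Eomes and the cytokine Ifng. Its hairpin is at chr6:31063023-31063093. Its only BATF control peak lay 24970 bp away on the higher-coordinate side (chr6:31088063-31088996), with a fold of 6.91 and 26 fragments. The nearest BATF peak with RA was 36551 bp from it, so that Mir29b-1 was the only one of the 8 without a BATF peak after RA.

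**Figure D3:**
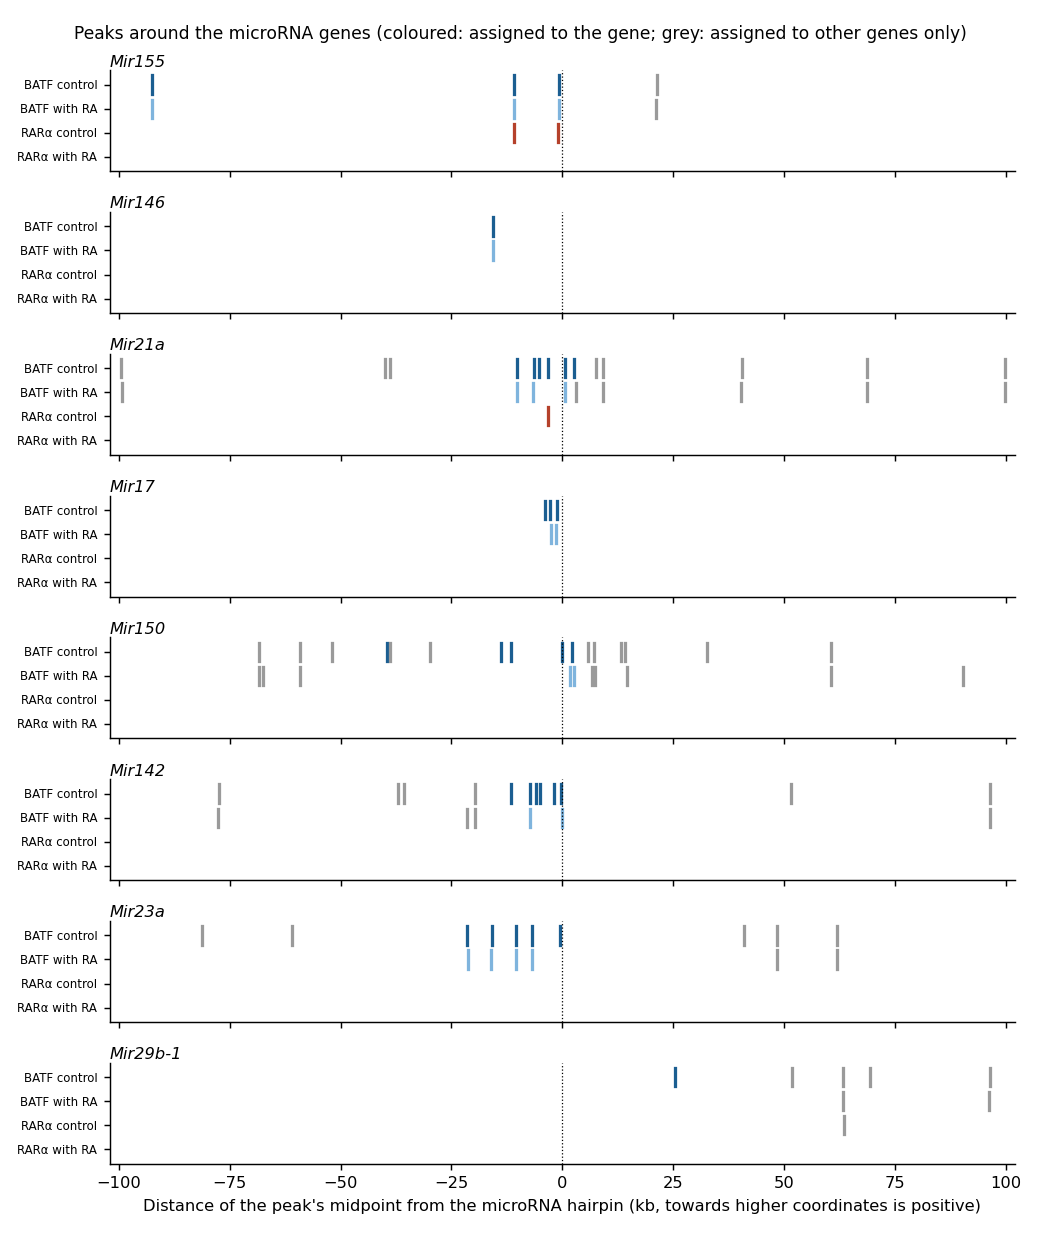
Position of every peak within 100 kb of each of the 8 microRNA hairpins, as the distance of the peak's midpoint from the hairpin in kb (horizontal axis), with 1 line of ticks per peak list. Coloured ticks were assigned to the microRNA gene and grey ticks to other genes only; 25 of the 30 assigned BATF control peaks lie on the lower-coordinate side, and no coloured tick is on the line of RARα with RA.

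The comparison of BATF with and without RA asks whether the ligand changes where BATF binds at these genes. Of the 30 control peaks 17 overlapped an RA peak, where 54.4% of the whole BATF control list did, and 25 had one within 5 kb, against 69.9%. All 17 RA peaks overlapped a control peak, so that no BATF region assigned to the 8 genes appeared with RA alone. This depends on the assignment. For example, an RA peak 21216 bp from Mir142 (chr11:87735302-87735648, fold 3.72), assigned to Supt4a only, overlapped no BATF control peak. Of the 17 overlapping peaks 14 had a lower fold with RA and 15 had fewer depth-scaled fragments, with a median ratio of 0.810 and a range of 0.508 to 1.41. Over the 8605 overlapping pairs of the whole list 75.5% had a lower fold and 77.1% fewer depth-scaled fragments, with a median ratio of 0.838 and quartiles of 0.704 and 0.985. The 8 genes were thus close to the list, and of their 17 intervals 16 spanned 1.

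When each control peak was instead set against the nearest RA peak within 5 kb, 14 of 25 had a lower fold (56.0%, exact 95% interval 34.9 to 75.6), against 66.9% of the 11048 such pairs in the whole list. That interval takes the pairs as independent. They were not, since several control peaks at Mir21a, Mir17 and Mir142 shared an RA peak. In depth-scaled fragments 17 of 25 were lower, against 66.5%. Some of these pairs set a weak control peak at Mir21a or Mir142 against a strong RA peak nearby that did not overlap it, and among the 17 overlapping peaks the share was 82.4%. Over these pairs of the whole list the median depth-scaled ratio was 0.885, with quartiles of 0.733 and 1.09.

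**Figure D4:**
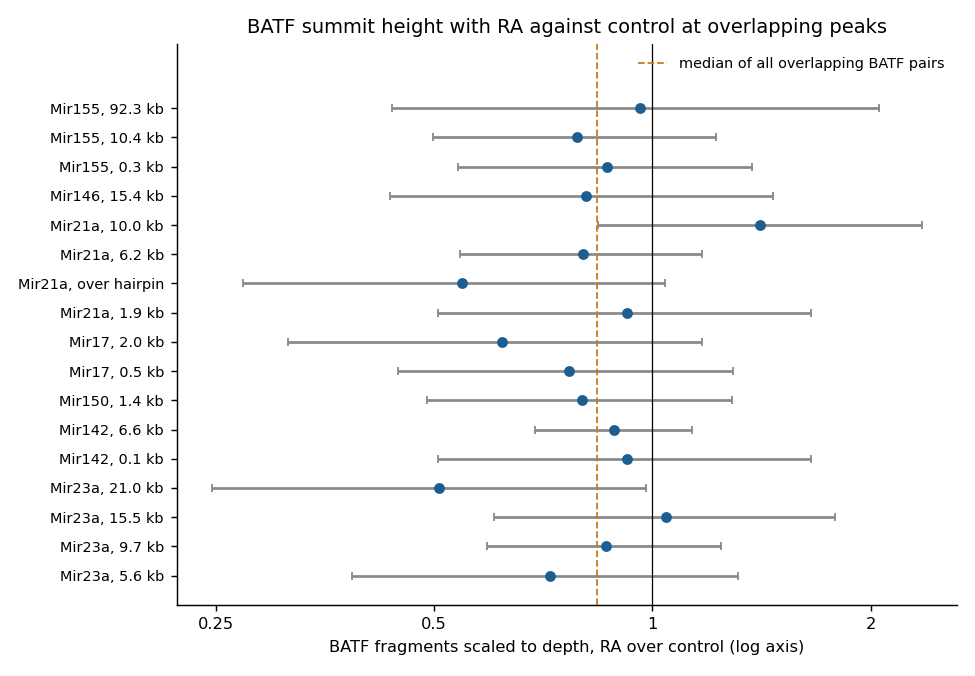
Ratio of depth-scaled BATF fragments at the summit, RA over control (horizontal log axis), for the 17 overlapping peaks, each named by its gene and distance from the hairpin (vertical axis), with 95% counting intervals as bars. The dashed line is the median of all 8605 overlapping BATF pairs, 0.838, and only the bar of the Mir23a peak 21.0 kb away, at 0.508, lies wholly below 1.

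The 13 control peaks without an overlapping RA peak had a median fold of 3.84, against 6.58 for the 17 that overlapped, and 12 of the 13 were below that second median, Mir29b-1 being the exception at 6.91. Given the smaller RA pool, the summit expected from an unchanged peak was compared with the fragments needed to pass the cutoff. The IgG level for this was that of the control peak, rescaled to the RA pool. For 10 of the 13 the expected summit was below the needed number or above it by less than its own counting error (Poisson SD), so that a loss of these 10 was not detectable at this depth. The other 3 were the Mir29b-1 peak, with 18.5 fragments expected (SD 4.30) and 11 needed, and the Mir142 peaks 4660 bp and 1537 bp away. Those Mir142 peaks had 25.6 (SD 5.06) and 24.2 (SD 4.92) expected and 19 and 17 needed. This SD leaves out the counting error of the control summit, so a loss of these 3 was not established either.

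The comparison of RARα with and without RA asks whether the ligand removes RARα from the genes. All 3 RARα control peaks at Mir155 and Mir21a were without a counterpart, the nearest RARα peak with RA being 1439477, 1449430 and 860829 bp away. Over the whole RARα control list only 10.2% of peaks had an RA peak within 5 kb, so the absence here was the usual outcome. An unchanged summit would have had 11.9 fragments where 9 were needed and 12.9 where 11 were needed at Mir155, and 21.8 where 12 were needed at Mir21a. At Mir155 both margins were smaller than the Poisson SD of the expected summit (3.45 and 3.59), so that a loss there was not detectable at this depth. At Mir21a the margin was 9.82 and the SD 4.67. That SD leaves out the counting error of the control summit, so a loss at Mir21a was not established either. All 3 RARα peaks overlapped a BATF control peak. By the wider rule of a BATF control peak within 5 kb all 3 counted too, where 61.9% of the whole RARα control list did. The share of the whole list by overlap is not given. At Mir155 the BATF peaks were still there after RA, with the second RARα summit 1 bp from the BATF summit of the RA list, whereas at Mir21a the nearest BATF peak with RA was 2908 bp away.

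Genes around the 8 in the pathway were counted from lists of related genes. The 9 cluster mates, which lie beside Mir17, Mir23a, Mir29b-1 and Mir142, largely share the same peaks, and 9 had a BATF peak in control cells and 8 with RA, where microRNA genes as a whole had 28.8% and 21.8%. Of the 8 paralogs with the same seed, Mir106a and Mir20b shared a BATF peak in control cells, with a fold of 5.16, and none had one with RA, which is near the same shares of microRNA genes in control cells and below them with RA. Neither list had a RARα peak. Among the host transcripts Vmp1 had 9 BATF peaks in control cells and 7 with RA and Mir17hg 2 and 1. Mir155hg was named in no list, but this reflects the naming of peaks. The promoter class BATF and RARα peaks of Mir155 overlap the Mir155hg span and carry the symbol Mir155 only.

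Of the 13 microRNA processing genes, 10 had a BATF peak in control cells and 9 with RA, with 38 and 25 peaks, where 44.9% and 35.2% of all genes had one. Ago2, the Argonaute that can cut its target, had 17 and 10 peaks, with highest folds of 17.3 and 12.6. Tnrc6b, a partner of Argonaute in silencing, had 7 and 4, with 10.9 and 7.39, and also the only RARα peak of the list, with RA (fold 3.03). Tnrc6c, of the same family as Tnrc6b, had 4 and 4, with 11.4 and 6.52, and Tarbp2, a partner of Dicer, 2 and 2, with 7.31 and 4.95. Drosha had a single BATF peak in control cells (fold 4.24) and Dicer1 a single one with RA (fold 5.62), both named here after their values were seen.

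All 10 target genes counted had a BATF peak in both conditions, with 48 and 36 peaks, where 44.9% and 35.2% of all genes had one. A RARα peak was assigned to 7 of them in control cells and to 1 with RA, where 6.63% and 2.9% of all genes had one, and the targets were chosen with these lists known. Myb, the miR-150 target, had 9 and 7 BATF peaks, with highest folds of 12.5 and 10.6, and no RARα peak. Socs1, the miR-155 target, had 8 and 5, with 14.5 and 11.8, and a RARα control peak of 2.87. Bcl2l11, a target of miR-17-92 that promotes cell death, had 6 and 5, with 8.89 and 8.09, and Pdcd4, the miR-21 target, 5 and 6, with 7.99 and 7.83, each with a RARα control peak, of 2.35 and 3.02. The BATF peak of Inpp5d, also a miR-155 target, was among the highest of the list, at 32.7 in control cells and 35.0 with RA, and its RARα peaks had folds of 7.47 and 3.29. It was named after its values were seen, and it alone among the targets had a RARα peak with RA, which overlapped its control peak (chr1:87637163-87637991 and chr1:87637061-87637356).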

How the data were processed

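RARα and BATF ChIP-seq peaks of CD8 T cells with and without RA were taken as deposited. Per the submitters' processing notes and the methods, the authors aligned reads to mm10 with Bowtie2, called peaks with MACS 2.2.7.1 on 2 pooled files against 1 IgG file, and annotated them with HOMER. The deposited pileup counts the fragments at a peak's summit (a signal), which the authors' caller had scaled by 0.9875 in the BATF control list only; it was restored to whole fragments (100% within 0.02). The deposited fold enrichment is a ratio, pileup plus 1 over local IgG level plus 1, from which the IgG level was recovered. The deposited p-value and q-value are on the −log10 scale.

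A peak belonged to a gene when its symbols, split at semicolons, held that gene. Hairpin positions were those of RefSeq on GRCm38.p6 (the mm10 assembly), without strand, so distances run to the nearest hairpin end. For the shares of all genes, symbols were matched on the same chromosome within 100 kb. Every peak of the 8 genes is named, and up to 4 genes with most peaks per related list; Drosha, Dicer1 and Inpp5d were added after their values were seen. The genes and lists were chosen with earlier results of these data known. Control and RA peaks were paired by overlap of at least 1 bp or nearest within 5 kb. Intervals are exact (Clopper-Pearson) at 95%. The pairing of peaks and the ratio interval were tested on simulated data, and the splitting of symbols on made-up examples. Alternatives were stricter thresholds, distance windows, list length and pairing. Sequences were not analysed here, and a gene of the target list is not reported here. Scripts ran in Python 3.11.15 with pandas 2.3.3, numpy 2.4.6 and scipy 1.17.1, and figures were drawn with matplotlib 3.10.9.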

Additional observations from a re-analysis of the deposited data

How the results depend on the processing

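Of 49 alternative values 36 were counted as unchanged and 13 as moved. For counts the limit was a factor of 1.5 from the reported value. For the share of pairs it was the exact 95% interval of the reported share, 34.9 to 75.6. This interval served only as a limit, since some of the pairs shared an RA peak and were not independent. The RARα counts with RA stayed at 0 in every setting and are among the unchanged values. The cause of a move was not tested except where the setting itself adds or removes peaks. Counting every peak within 100 kb of a hairpin, whatever its assigned gene, gave 65 BATF control peaks and 40 with RA. A fold of at least 5 left 16 and 9 BATF peaks, and 0 RARα control peaks at 0 genes. A −log10 p-value of at least 5, and likewise of at least 7, left 1 RARα control peak at 1 gene, that of Mir21a. The BATF control list shortened to the length of the RA list kept 19 peaks. The share of pairs with a lower fold was 82.4% by overlap and 82.4% for mutually nearest pairs, the latter chosen after seeing the data. No paired analysis was possible because peaks were called on pooled files, leaving a single list for each condition, and for the same reason no replicate could be left out. The BATF pool with RA was the shallowest of the ChIP pools, which limits how far a loss of weak peaks with RA can be detected.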

Other observations

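Stronger peaks than those assigned to the 8 microRNA genes lay within 100 kb of some of them, assigned to other genes; they were chosen after their values were seen. In intron 7 of Vmp1, 39626 bp from the Mir21a hairpin, a BATF control peak (chr11:86623784-86625405) had a fold of 38.8 with 353 fragments, and 28.5 with 233 after RA. In intron 3 of Lincpint, a long non-coding RNA gene, a BATF control peak lay 61887 bp from Mir29b-1 (chr6:31124980-31127584). It had a fold of 29.6 with 119 fragments, and 30.7 with 92 after RA. A RARα control peak (chr6:31126301-31126761) with a fold of 4.64 and 17 fragments lay inside it, without a RARα peak there after RA. At the promoter of Mks1, a gene for a cilium protein, a BATF control peak lay 96034 bp from Mir142. It had a fold of 23.5 with 94 fragments, and 18.0 with 56 after RA.

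Among the 1228 microRNA genes, Mir142 and Mir21a ranked 7th by number of BATF control peaks, Mir150 and Mir23a 12th, Mir155 and Mir17 48th, and Mir146 and Mir29b-1 176th, ties sharing a rank. The most peaks were assigned to Mir8112, with 14 in control cells and 5 with RA. RARα peaks naming any microRNA gene numbered 39 in control cells, of which 7 lay within 10 kb of the hairpin and 3 were of the promoter class, at Mir155, Mir6974 and Mir5131. With RA there were 11, none of them within 10 kb or of the promoter class.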
